A study of Mus musculus with 2 samples.

Results

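Mir375 (ENSMUSG00000065616.3) is 1 hairpin gene among the 2202 annotated microRNA genes counted in mouse adrenal gland. It was chosen by name, as the gene that GENCODE M21 calls Mir375. Adrenal gland tissue came from male B6CASTF1/J mice aged 25 days, a first-generation cross of C57BL/6J and CAST/EiJ, with no treatment named. The labels give 1 group of 2 biological replicates and no second group. They number the mice separately but list a single donor entry, so an SD or p-value here speaks only of how these libraries differ, and that difference may be technical. The mice carry a Mir375 copy from each parental strain, and the counts do not separate them. Levels are counts per 1000000 counts on the sense strand of microRNA genes (CPM). Each mature microRNA is read whole, so counts were not divided by hairpin length.

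A microRNA is cut from a hairpin transcript and guides silencing proteins to messenger RNAs that pair with its seed, the bases 2 to 8 of the mature strand. miR-375 is best known from pancreatic islet cells, where it restrains insulin secretion and maintains endocrine cell mass. It is also found in pituitary and other hormone-secreting cells, and it has been reported in the adrenal cortex, which makes steroids, and in chromaffin cells of the medulla, which make catecholamines.

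The hairpin lies on the minus strand of chromosome 1 (mm10, 74900658 to 74900721) and is 64 bases long. It overlaps no other annotated gene. The nearest is Cfap65, a gene of cilia, whose 3′ end lies 1.35 kb away at higher coordinates on the same strand. The antisense gene Gm15841, on the plus strand, begins 1.65 kb away. Cryba2, a lens crystallin gene on the minus strand, lies 7.51 kb away at lower coordinates, followed at 15.2 kb by Fev, a transcription factor gene of serotonin neurons.

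The hairpin is printed first because its base composition sets it apart among abundant hairpins, with each CG dinucleotide in capitals. The mature arms that follow are its own 5p arm and those of the hairpins against which its level is set below, with the seed in capitals. The opposite arm of Mir375 was not at hand and is not printed, which does not make the 5p arm its main product. All are from RefSeq on GRCm38.p6, 5′ to 3′.
Mir375 hairpin: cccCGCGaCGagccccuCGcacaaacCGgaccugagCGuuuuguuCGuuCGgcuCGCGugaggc
mmu-miR-375-5p: gCGACGAGccccucgcacaaac
mmu-miR-26b-5p: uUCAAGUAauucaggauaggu
mmu-miR-139-5p: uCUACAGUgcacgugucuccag
mmu-miR-7b-5p: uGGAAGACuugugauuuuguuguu
mmu-miR-137-3p: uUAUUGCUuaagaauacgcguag

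The Mir375 hairpin held 10 CG dinucleotides and 67.2% GC. The median detected hairpin held 2 and 50.2%. A gene is called detected here with at least 10 sense counts in both libraries, which 352 genes reached. Among the 71 detected genes averaging 1000 CPM or more, none had more CG dinucleotides, the next being Mir431 with 8, and only Mir615 had a higher GC content, 69.6%. Over all detected genes, 10 hairpins held more CG dinucleotides and 22 had a higher GC content. At 64 bases it was also shorter than 335 of the detected hairpins. The 5p seed holds 2 CG dinucleotides. Of 585 mature arms that RefSeq gives for detected genes, 89 (15.2%) held at least 1 in the seed and 10 held 2 or more. The 5p arm was used because the opposite arm of Mir375 was missing from the sequences at hand. Counts per hairpin do not show which arm was the more abundant, so these seed values hold for the 5p arm alone. Whether they hold for the miR-375 known from islet cells was not tested.

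**Figure D1:**
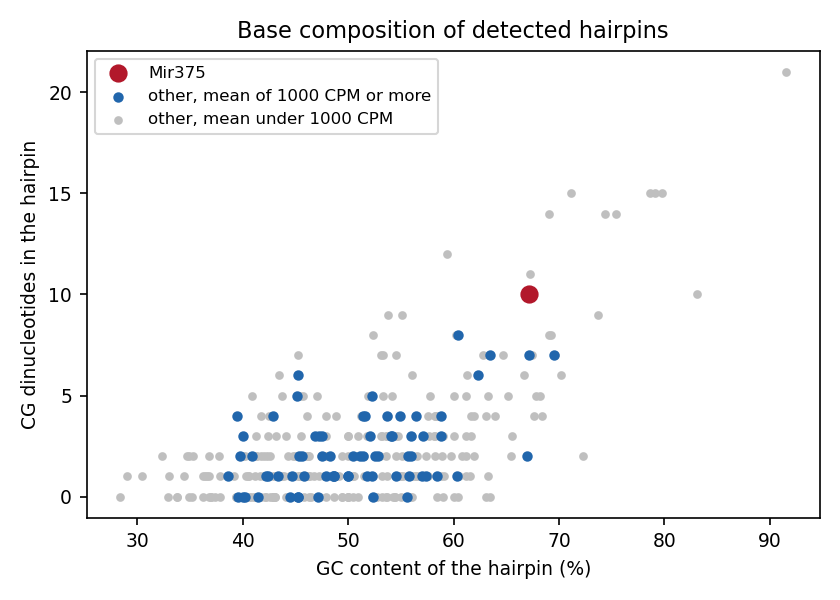
GC content of the hairpin in percent (x axis) against its number of CG dinucleotides (y axis) for the 352 detected hairpins, 1 point each. Mir375, in red, stands at 67.2% GC and 10 CG dinucleotides, with more CG dinucleotides than each of the other 70 hairpins with a mean of 1000 CPM or more (blue).

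The sequence is its own in the annotation. None of the 47 stretches of 18 bases in the hairpin occurred in another gene, on either strand, among 141766 other GENCODE transcripts. Mir375 therefore shares no run of 20 bases with another hairpin, as 1084 of the 2202 genes do, whose reads were lost where they mapped to several places. No other hairpin with arms in the RefSeq table shared the seed of the 5p arm, and the seed of miR-375-3p was not compared. Both libraries had 0 antisense counts at Mir375, so the either-strand column gave the same counts as the sense column. Counts are per hairpin and do not tell miR-375-5p from miR-375-3p.

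Mir375 was among the most abundant hairpins of the adrenal gland in both libraries. It had 131718 counts of 4541373 in replicate 2 and 119781 of 3588361 in replicate 1. That is 29004 CPM (28850 to 29159, exact 95% interval) in replicate 2 and 33380 CPM (33195 to 33567) in replicate 1. The intervals allow for counting error alone, as no molecular identifiers are named and reads may be copies of each other. The mean was 31192 CPM ± 3095 (SD, n = 2). About 3 in every 100 microRNA counts were Mir375 in each library, 2.90% in replicate 2 and 3.34% in replicate 1. Of all input reads, 1.28% in replicate 2 and 1.38% in replicate 1 were counted there. The level was 260 times that of the median detected gene in replicate 2 and 324 times in replicate 1. In bulk tissue, fewer cells of a type and less RNA per cell cannot be told apart.

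The libraries differed in make-up in ways that touch these levels. Mir122, the main hepatocyte microRNA, took up 19.8% of sense counts in replicate 2 and 0.0892% in replicate 1. With Mir122 out of the total, Mir375 stood at 36144 CPM (35953 to 36337) in replicate 2 and 33410 CPM (33224 to 33597) in replicate 1, a mean of 34777 CPM ± 1933 (SD, n = 2). Between these 2 sense totals, which library was the higher for Mir375 thus turned on Mir122. The TMM, DESeq2 and input-read scalings given further below left replicate 2 the lower. The kidney list (Mir192, Mir194-2 and Mir204) summed to 1393 CPM in replicate 2 and 106 CPM in replicate 1. Mir192 and Mir194-2 also count among the 9 liver-abundant hairpins left out of a total further below, so they do not stand for kidney alone. Mir204 went the other way, with 35.7 CPM in replicate 2 and 48.5 CPM in replicate 1. The striated muscle list, as counted nearly all Mir206, summed to 0.661 and 993 CPM in replicates 2 and 1. Its other 4 members each share 20 or more bases with another hairpin and may be understated. The blood list had 2085 and 3443 CPM, and the smooth muscle and stroma list 33042 and 49808 CPM, in the same order. Most of the stromal sum, as counted, was Mir143, and Mir214 of that list went the other way, with 1088 CPM in replicate 2 and 248 in replicate 1. Mir199a-1 and Mir199a-2, also of that list, share 20 or more bases with another hairpin. They and the stromal sum may be understated. Mir126a, the endothelial hairpin, had 60799 and 62826 CPM. The part of these other tissues and cell types in the Mir375 values was not tested.

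By rank, Mir375 was 9th of 2202 genes in replicate 2 and 11th in replicate 1. Reads that mapped to several places, 27.0% of input in replicate 2 and 31.6% in replicate 1, are in no gene's count. Hairpins that share bases may therefore rank too low, and Mir375, which shares none, too high. By mean level it was 12th. With Mir122 left out it was 8th in replicate 2, 11th in replicate 1 and 10th by mean. Ranked by mean counts per base of hairpin, it was 7th. The genes above it held 54.5% of the counts in replicate 2 and 55.7% in replicate 1. Among the 25 most abundant genes, 7 of the other 24 exceeded Mir375 in both libraries: Mirlet7g, Mir126a, Mir378a, Mirlet7b, Mir10a, Mirlet7i and Mir143. A further 13 lay below it in both, and for 4 (Mir122, Mir23b, Mir23a and Mir26b) the order turned round between the libraries.

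Neighbours in rank could not all be told from Mir375 by the spread between libraries. Its range of levels, 29004 to 33380 CPM, overlapped that of 7 genes: Mir122, Mir10a, Mir143, Mir23b, Mir23a, Mir26b and Mir10b. Without Mir122 in the total only Mir23b, Mir23a and Mir26b still overlapped. The 5 genes Mirlet7g, Mir126a, Mir378a, Mirlet7b and Mirlet7i lay above without overlap under both totals. Below it, Mir139, of the phosphodiesterase gene Pde2a, had 23158 CPM in replicate 2, against 25866 in replicate 1, and did not reach the lower Mir375 value. Mir322 followed with 19003 and 28629 CPM, Mir10b with 10544 and 31262 CPM, Mir22 with 22988 and 8060 CPM, and Mirlet7d with 18259 and 12679 CPM, each in replicates 2 and 1. Of the 11 genes from 5 places above to 5 below, Mir139 and Mir375 had the smallest SDs, 1915 and 3095 CPM.

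**Figure D2:**
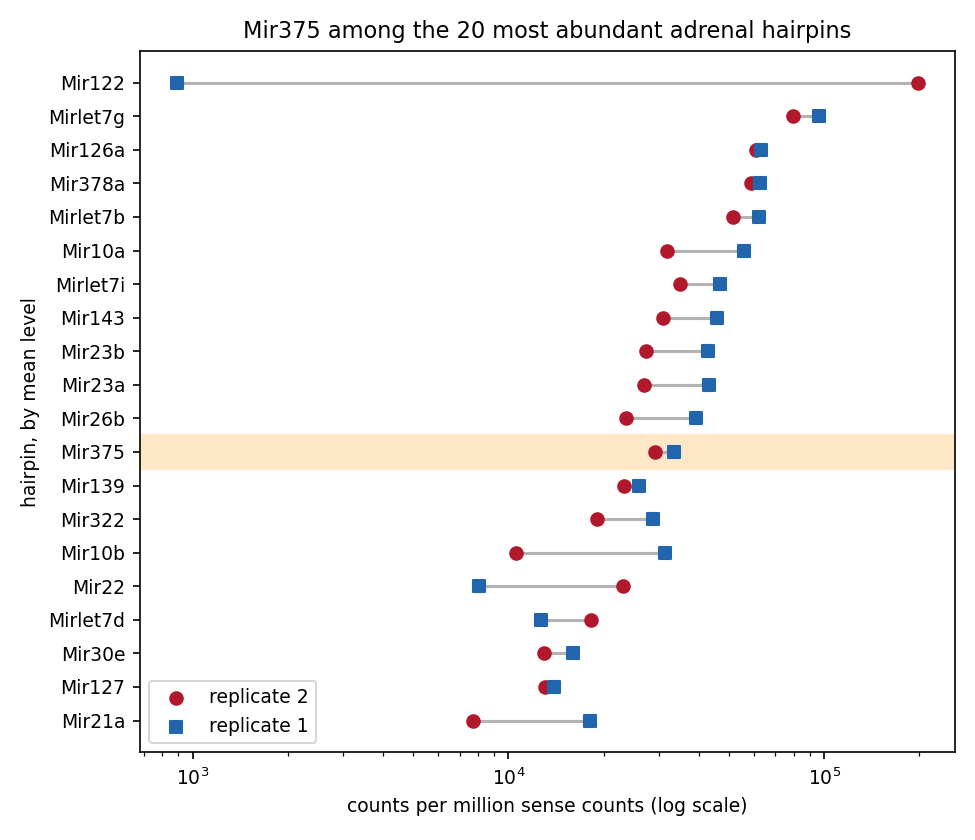
Level of the 20 hairpins with the highest mean, in CPM on a log axis, ordered by mean level down the y axis. Red circles are replicate 2, blue squares replicate 1, and the line joins them. Mir375 (shaded) spans 29004 to 33380 CPM, a shorter span than Mir26b above it.

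Ratios of counts within a library do not depend on any total. Mir26b, a hairpin in the Ctdsp1 phosphatase gene, is the gene next above Mir375 by mean. Mir375 had 1.23 counts per Mir26b count in replicate 2 (1.22 to 1.24) and 0.850 in replicate 1 (0.844 to 0.857), so their order changed beyond counting error. Against Mir139 the ratio was 1.25 in replicate 2 (1.24 to 1.26) and 1.29 in replicate 1 (1.28 to 1.30), much nearer to each other. Against Mir126a it was 0.477 and 0.531, against Mir143 of smooth muscle 0.942 and 0.732, and against Mir21a 3.75 and 1.84, in replicates 2 and 1. Mir375 gained in replicate 2 against 15 of the other 24 most abundant genes and lost against 9.

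Between the libraries, Mir375 was 0.869-fold (0.862 to 0.876) in replicate 2 relative to replicate 1, a log2 ratio of -0.20. The exact binomial test, two-sided and adjusted by Benjamini-Hochberg over 352 detected genes, gave an adjusted p of 1.2e-269. Of the 352 genes, 236 (67.0%) passed, with 129 (36.6%) lower and 107 (30.4%) higher in replicate 2. Against that background the call of Mir375 carries little weight. With Mir122 out of the total the ratio was 1.08 (1.07 to 1.09), a log2 ratio of 0.11 in the opposite direction, with an adjusted exact binomial p of 1.0e-85. Then 250 of 351 genes passed (71.2%), with 175 (49.9%) higher and 75 (21.4%) lower in replicate 2. The share of calls that were higher there was 70.0%, against 45.3% with all genes in the total. Under edgeR's TMM factors the ratio was 0.907, under DESeq2 size factors 0.893 and per input read 0.927. The direction of this difference was not stable across totals.

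**Figure D3:**
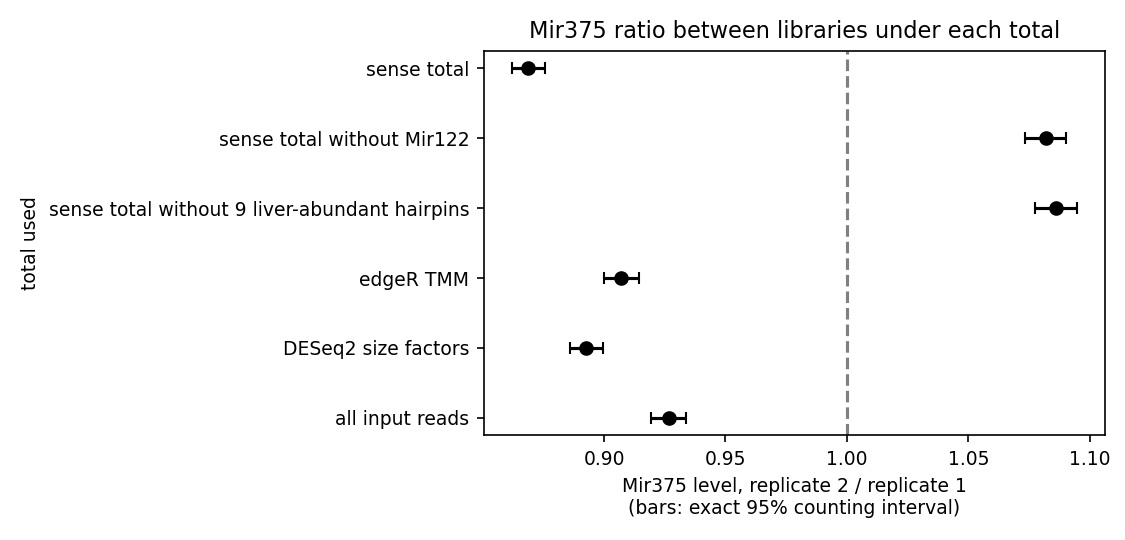
Ratio of the Mir375 level in replicate 2 to that in replicate 1 (x axis) under 6 totals (y axis), with exact 95% counting intervals as bars and a dashed line at 1. The 4 totals that include Mir122 or scale by detected genes or input reads lie below 1, between 0.869 and 0.927, and the 2 totals without liver-abundant hairpins lie at 1.08 and 1.09.

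Mir375 lay nearer to the median gene than most others did. The median detected gene had a log2 ratio of -0.04, and Mir375 lay 0.16 below it, a distance that no choice of total changes. The median distance from that gene was 0.45 over the 352 detected genes and 0.44 over the 71 with at least 1000 CPM. Of the detected genes, 81 lay nearer to it than Mir375, as did 20 of the 71. A lower ratio than that of Mir375 was found in 137 genes and a higher one in 214. The biological coefficient of variation that edgeR estimated over all detected genes was 0.422. Its value for Mir375, 0.381, ranked 227th from the lowest of 352 genes and is drawn toward that of other genes, since 2 libraries leave 1 degree of freedom.

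**Figure D4:**
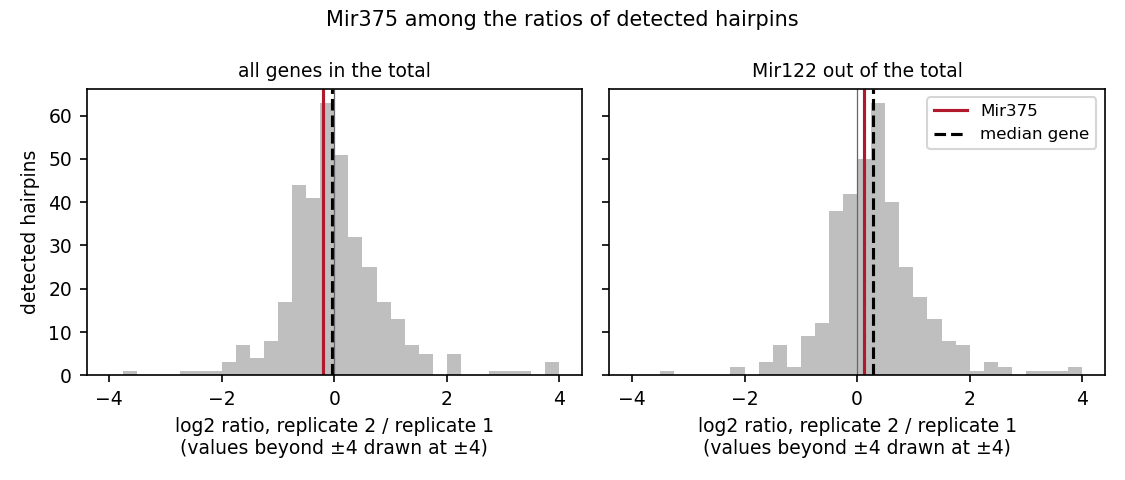
Number of detected hairpins (y axis) by log2 ratio of replicate 2 to replicate 1 (x axis), with all genes in the total (left) and with Mir122 out of it (right). Mir375 (red line) lies at -0.20 on the left and 0.11 on the right, in both cases 0.16 below the median gene (dashed).

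The 5 abundant genes (mean of at least 1000 CPM) nearest to Mir375 in log2 ratio were Mir100, Mir872, Mir433, Mir382 and Mir93. Their ratios ran from -0.20 for Mir100 to -0.17 for Mir93. The measure uses 2 libraries only, and 7 of the 70 other abundant genes lay within 0.05 of Mir375.

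Mir375 made up most of the counts of hairpins associated with islet endocrine cells. The list, drawn up with earlier results known, has 14 members, of which 13 were detected. Mir375 held 84.8% of its counts in replicate 2 (84.6 to 85.0, exact) and 83.2% in replicate 1 (83.0 to 83.4), or 84.0% ± 1.13 (SD, n = 2). Next came Mir7b, a member of the miR-7 family of neuroendocrine cells, with 4084 CPM in replicate 2 and 5683 CPM in replicate 1. Mir375 had 7.10 counts per Mir7b count in replicate 2 (6.99 to 7.21) and 5.87 in replicate 1 (5.79 to 5.96). The family copies Mir7-1 and Mir7-2 stood at 260 and 71.6 CPM in replicate 2 and 364 and 48.5 CPM in replicate 1. Each has 20 or more bases in common with another hairpin and may be understated.

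The remaining islet-list hairpins were far lower than Mir375 and Mir7b. Of the sensory cluster, Mir182 stood at 476 CPM in replicate 2 against 417 in replicate 1, and Mir183 at 54.6 against 111. Mir184 stood at 46.7 CPM in replicate 2, against 30.1 in replicate 1. Mir153, which in mouse lies in the secretory granule gene Ptprn2, stood at 46.5 CPM in replicate 2, against 27.3 in replicate 1. The epithelial hairpins Mir200b and Mir429 had 190 and 177 counts in replicate 2 and 17 and 13 in replicate 1, the widest relative gaps of the list among detected members. By the same binomial test, 7 of the 13 detected members were higher and 4, Mir375 among them, lower in replicate 2, beside 30.4% higher and 36.6% lower over all detected genes. The median log2 ratio was 0.36, beside -0.04 over all detected genes. With Mir122 out of the total, 9 were higher, among them Mir375, and 3 lower, beside 49.9% and 21.4% over all.

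**Figure D5:**
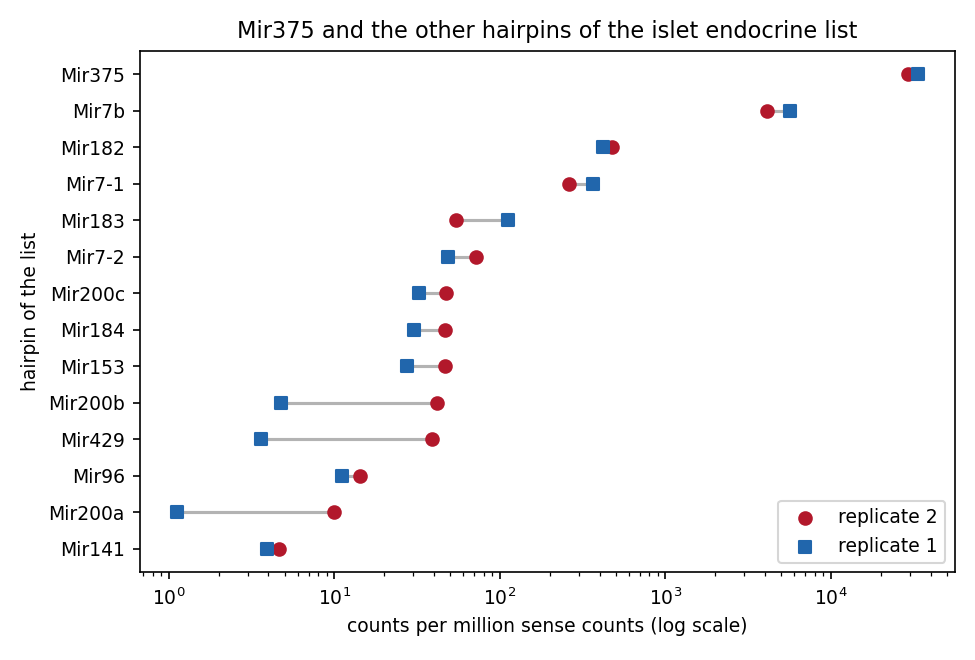
Level of the 14 hairpins of the islet endocrine list in CPM on a log axis, ordered by mean level down the y axis, with replicate 2 as red circles and replicate 1 as blue squares. Mir375, at 29004 and 33380 CPM, stands above Mir7b, at 4084 and 5683 CPM, and Mir182 comes next with 476 and 417 CPM, each in replicates 2 and 1.

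As counted, hairpins of neurons and chromaffin cells were much lower than Mir375. That list, which shares Mir7b, Mir7-1, Mir7-2 and Mir153 with the islet list, summed to 5599 CPM in replicate 2, against 7820 in replicate 1. It had 13 of 19 members detected. Of the 19, 14 share 20 or more bases with another hairpin and may be understated, as may the sum, while Mir375 shares none. Mir7b, Mir137 and Mir132 are not among those 14. Mir137, a hairpin of neurons and chromaffin cells, stood at 419 CPM in replicate 2, against 660 in replicate 1. Mir375 had 69.2 counts per Mir137 count in replicate 2 (66.1 to 72.4) and 50.6 in replicate 1 (48.6 to 52.7). Mir132, induced by neuronal activity, had 530 and 819 CPM in replicates 2 and 1. Relative to Mir375, 7 of the 13 detected members, among them Mir137, Mir132 and Mir7b, were lower in replicate 2 and 6 were higher, among them Mir153 and Mir7-2. Of the 13, 3 were called higher and 7 lower in replicate 2, beside 30.4% and 36.6% over all detected genes, and the median log2 ratio was -0.48, beside -0.04. With Mir122 out of the total 5 were higher and 7 lower, beside 49.9% and 21.4% over all. The 5 members at 0 in both libraries, 2 of Mir9 and 3 of Mir124a, share bases with copies, so a count of 0 sets no limit there.

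Hairpins reported from adrenal cortex together came, as counted, to less than Mir375 in replicate 2 and to more in replicate 1. The list had 12 of 13 members detected and summed to 24830 CPM in replicate 2 and 36949 CPM in replicate 1. Its members Mir24-1 and Mir24-2 share 20 or more bases with another hairpin and may be understated. The sum may therefore be too low beside Mir375, which shares none. Mir21a, a hairpin responsive to angiotensin, stood at 7728 CPM in replicate 2, against 18167 in replicate 1. Mir335 had 7124 and 11407 CPM, Mir125a 5781 and 3093 CPM, Mir320 1659 and 2174 CPM, and Mir195a 824 and 784 CPM, in replicates 2 and 1. Of the 12, 3 were called higher and 4 lower in replicate 2, with a median log2 ratio of 0.10. Over all detected genes 30.4% were higher and 36.6% lower, so these counts lie near the background. With Mir122 out of the total 6 were higher and 4 lower, beside 49.9% and 21.4% over all. The tables hold hairpins alone, so steroid and catecholamine enzymes could not be used to check how much cortex or medulla each gland held, and the part of that balance in the level of Mir375 was not tested.

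Pancreas and gut also hold endocrine cells with Mir375, and any part of these tissues in its level was not tested. The acinar hairpins of pancreas, which stand for acinar and not for endocrine cells, were near 0. Mir217, Mir216a and Mir216b, the acinar hairpins, had 4, 1 and 1 counts in replicate 2 and 2, 0 and 0 counts in replicate 1. Summed, that is 1.32 CPM in replicate 2 and 0.557 CPM in replicate 1. The gut and epithelial list summed to 1462 CPM in replicate 2 and 3132 CPM in replicate 1, mostly Mir203 with 1313 and 3085 CPM. Mir215 of gut had 6 and 2 counts. Of the 5 detected members, 3 were called higher and 1 lower in replicate 2, beside 30.4% and 36.6% over all detected genes. The median log2 ratio was 0.55, beside -0.04, so the sum followed Mir203 alone. With Mir122 out of the total 3 were higher and 1 lower, beside 49.9% and 21.4% over all.

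On chromosome 1, Mir375 and Mir26b were the only hairpins with counts among Mir375 and its 10 nearest annotated neighbours. Of the 5 nearest annotated hairpins on each side, Mir26b, 506 kb away at lower coordinates and on the other strand, stood at 23636 CPM in replicate 2, against 39259 in replicate 1. The other 9 had 0 counts in both libraries. Of these, 5 share no run of 20 bases with another hairpin, and for them a count of 0 allowed up to 0.661 CPM in replicate 2 and 0.836 CPM in replicate 1 (3 counts). The other 4 share bases, and 0 sets no limit. Mir26b was lower in replicate 2 under both totals, with log2 ratios of -0.73 and -0.42, while the ratio of Mir375 changed sign.

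When hairpins whose RefSeq arms share a seed were summed, Mir375, grouped by its 5p arm, was a group of 1 hairpin and ranked 10th by mean, 7th in replicate 2 and 9th in replicate 1. Of the 9 groups above it, 3 had more than 1 hairpin: the let-7 group with 13, the group of Mir10a and Mir10b, and the Mir26 group with 5. The seed of miR-375-3p was not used, so hairpins that may share it were not joined to Mir375. Only arms in the RefSeq table could join hairpins, so other groups may be incomplete too. Mir23b and Mir23a, both of the miR-23 family, stood as separate groups above Mir375, ranked 7th and 8th by mean. The counts of groups and the ranks of Mir375 given here therefore hold for this grouping only.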

How the data were processed

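MicroRNA sequencing of adrenal gland gave 1 table for each of 2 libraries. Per the labels, the authors made them from total RNA with a multiplexed microRNA protocol for short molecules. The deposited values are raw read counts per hairpin gene, from mm10 with GENCODE M21 per the accompanying text files. For the aligner and its settings: not given in the sources used here. The 3 count columns held either-strand, sense and antisense counts, as their values showed, and sense counts were used. The either-strand column leaves out reads where hairpins lie on both strands: 29 detected genes, Mir126a and Mir378a among them, fell under 10 counts there, with 15.1% and 16.7% of the sense counts of replicates 2 and 1. The 4 summary lines stayed out of totals.

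Levels are counts per 1000000 sense counts (CPM). A gene counted as detected with 10 or more counts in each library. Each gene's reads were set against the library totals in an exact two-sided binomial test, with Benjamini-Hochberg adjustment over all detected genes and a threshold of 0.05. The test was tried on simulated counts with known fold changes and counting error alone. That trial does not cover the spread between these libraries. Intervals are exact (Clopper-Pearson) at 95%. Factors and dispersion came from edgeR 4.0.16 and DESeq2 1.42.0, and folding from RNAfold 2.7.2. Python 3.11.15, scipy 1.17.1, pandas 2.3.3 and R 4.3.3 were used. Hairpin names and positions came from GENCODE M21 and mature arms from RefSeq (GRCm38.p6).

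Mir375 and the 11 gene lists were chosen with earlier results of these data known. The genes named are Mir375, its 5 neighbours in rank and on chromosome 1 on each side, the 5 leading members of each list, the 5 abundant genes nearest to it in ratio, and Mir122, Mir192, Mir194-2 and Mir206. Other genes were named after their values were seen. Alternatives were other totals, count minimums, the either-strand column, hairpins without shared bases, counts per base of hairpin and each replicate left out. The list member Mir497a was not analysed here.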

Additional observations from a re-analysis of the deposited data

How the results depend on the processing

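The mean level of Mir375 moved by more than its SD to 34777 CPM without Mir122 in the total, 34887 without 9 liver-abundant hairpins, 37116 with the either-strand column, which drops 29 detected genes, and 13315 with all input reads as the total, and stayed within it under TMM and DESeq2 factors. Each library alone gave 29004 and 33380 CPM. The rank by mean, 12, became 10 without Mir122, 10 without the liver-abundant hairpins, 10 with the either-strand column, 9 without hairpins that share bases and 7 per base of hairpin, and 9 to 11 with a replicate left out. Among seed groups the rank of 10 became 8 without Mir122 and 8 with the either-strand column, and 7 to 9 with a replicate left out. The log2 ratio of Mir375, -0.20, reversed to 0.11 without Mir122 and to 0.12 without the liver-abundant hairpins. Its direction and call held under TMM, DESeq2 and input-read totals and the either-strand column. The 3 other count minimums changed only which genes entered the adjustment, so they could not move its ratio. Ratios of other genes also reversed without Mir122 and without the liver-abundant hairpins: Mir139 to 0.16 and 0.16, Mir126a to 0.27 and 0.27, Mir100 to 0.11 and 0.12, Mir872 to 0.11 and 0.12, Mir433 to 0.13 and 0.14, Mir382 to 0.14 and 0.15, and Mir93 to 0.15 and 0.16. Mir126a also reversed to 0.015 under TMM and 0.045 per input read. Removing a gene that took 19.8% of replicate 2 from the total raises every other level there. The number of genes called, 236, ran from 185 to 250. With a replicate left out, the Mir375 share of the islet endocrine list was 83.2% to 84.8%, its ratio to Mir7b 5.87 to 7.10 and its ratio to Mir26b 0.850 to 1.23. A test between libraries cannot be made with 1 left out. No paired analysis was possible because there is 1 group. With 131718 and 119781 counts, depth does not limit the level of Mir375, while the number of libraries does.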

Other observations

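Folded with RNAfold, the Mir375 hairpin as annotated formed 21 base pairs with a minimum free energy of -26.8 kcal per mol. Of the 352 detected hairpins, 316 had a lower energy and per base 207 of them had a lower one. The fold is a prediction from the annotated sequence and no measurement of structure.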
